A study of Mus musculus with 2 samples.

Results

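Lyz1 and Lyz2, the lysozyme genes that mice carry side by side, were followed through single-cell RNA sequencing of mouse aorta. They were found by symbol among 33696 features of the count matrices, where each has 1 entry, so the members are 2 of 33696. The members were chosen by a measured value, the higher Lyz1 level that an earlier account of these data had found in macrophages of 1 of the libraries. The pooled macrophage values below are therefore a description of what chose them. What that choice did not use is how the molecules were spread over cells and over myeloid states, and how the genes compare with each other.

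Cells of whole mouse aorta were captured as 1 wild-type library (16686 cells kept) and 1 library titled Kif13b-/- (6887 cells kept). The study asks how KIF13B, a kinesin motor, bears on the clearance of dying cells by macrophages in atherosclerosis. The sample title calls the second library Kif13b-/-, while its genotype entry calls it a knock down; the sources used here give neither the part of the gene that was hit nor the animals' strain, sex, age or diet. Each genotype is 1 library, so no difference between them has a replicate check, no p-value is given, and every interval is an exact 95% interval that covers counting error only.

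Lysozymes cut the peptidoglycan of bacterial cell walls. Lyz2 encodes the M-type enzyme of macrophages, monocytes and neutrophils, and its locus drives the Cre line known as LysM-Cre. Lyz1 encodes the P-type enzyme, best known from the granules of Paneth cells in the small intestine. The genes arose by duplication and lie in tandem, which makes their transcripts alike and their separate counting a matter of few bases.

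In the GRCm38 annotation both genes are on the minus strand of chromosome 10. Lyz1 (ENSMUSG00000069515) runs from 117287797 to 117292868 in 4 exons, and Lyz2 (ENSMUSG00000069516) from 117277331 to 117282321, also in 4 exons, with 5475 bases between them. Their upstream sequences, from RefSeq's promoter table on GRCm38.p6, are shown because the pair differed so widely in level. Each run holds the bases from 250 to 51 before the RefSeq start of the gene, 5′ to 3′ on the minus strand, for Lyz1 at chr10:117292919-117293118 and for Lyz2 at chr10:117282323-117282522. Capitals mark the bases that differ between the 2 genes or stand opposite a gap when they are aligned.
Lyz1: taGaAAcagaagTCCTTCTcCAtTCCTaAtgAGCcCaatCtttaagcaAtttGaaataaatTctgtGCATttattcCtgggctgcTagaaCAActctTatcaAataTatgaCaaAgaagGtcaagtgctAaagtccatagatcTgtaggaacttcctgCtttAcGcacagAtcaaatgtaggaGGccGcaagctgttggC
Lyz2: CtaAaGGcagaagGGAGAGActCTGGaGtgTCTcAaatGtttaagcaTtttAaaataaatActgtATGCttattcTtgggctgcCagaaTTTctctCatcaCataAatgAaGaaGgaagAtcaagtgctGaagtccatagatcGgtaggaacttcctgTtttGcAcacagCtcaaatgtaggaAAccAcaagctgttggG

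Aligned, these windows shared 150 bases and differed at 48, which is 75.8% identity. Identity was 85% in the 100 bases nearest the genes. GGAA, the core bound by ETS factors such as PU.1, was found 4 times in each on either strand, and 89.2% of 32851 mouse promoter windows of the same length hold it. The longer AGGAAG, whose matches also count as GGAA, was found 1 time in Lyz1 and 2 times in Lyz2, against 23.9% of windows with a match. TTNNGCAA, a form of the C/EBP motif, was found 1 time in Lyz1 and 0 times in Lyz2, with 8.11% of windows holding it. A TATAAA box was found in neither window, and 9.14% of windows have one. The windows end 51 bases before the start, so a box nearer the start could not be found in any of them. These matches describe letters and not binding.

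The annotated transcripts are 1263 bases (Lyz1) and 1316 bases (Lyz2) long and identical at 96.0% of aligned bases. A 90-base read would be the same from either gene at 44 of 1174 start positions of Lyz1 and 44 of 1227 of Lyz2. In the last 500 bases, where 3′ libraries read, 15 of 411 positions are shared. The sources used here do not say how reads matching both genes were counted, so the Lyz1 level is uncertain where Lyz2 is very high. The cell richest in Lyz2 held 2722 Lyz2 UMIs, counts of unique molecular identifiers that each stand for 1 captured molecule, beside 0 of Lyz1. The part of shared reads in the Lyz1 counts was not tested.

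The libraries differed in depth, with 2385 UMIs per kept cell at the median in the wild-type library and 5760 in the other. They held more cell barcodes than the protocol loaded cells, and 52 barcode sequences occur in both. Kif13b itself was counted in both libraries, at 70.5 CPM in the wild-type library (UMIs of a gene per 1000000 UMIs in all; 68.7 to 72.4) and 43.8 CPM (42.1 to 45.5). Within macrophage-like cells the values were 56.8 CPM (52.6 to 61.2) and 46.8 CPM (42.6 to 51.3). A 3′ count outside a deleted part checks nothing, and the label is therefore quoted rather than assumed: the second library is called the library labelled Kif13b-/-.

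Across all barcodes as deposited, the wild-type library held 551 Lyz1 UMIs in 106 barcodes and 98538 Lyz2 UMIs in 6970 barcodes. The library labelled Kif13b-/- held 1408 Lyz1 UMIs in 312 barcodes and 140116 Lyz2 UMIs in 4470 barcodes. After filtering, macrophage-like cells carried 94.9% of the Lyz1 and 86.7% of the Lyz2 in the wild-type library, and 77.0% and 67.3% in the other. Macrophage-like cells are those of 3 clusters named from markers such as Csf1r, C1qa and Cd68. The same name draws on clusters in different proportions: cluster 0 gave 1478 of 2601 cells in the wild-type library, while clusters 4 (450 cells) and 6 (453 cells) gave most of 1276 in the other.

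In macrophage-like cells both lysozymes had a higher level in the library labelled Kif13b-/-, Lyz1 by a wider margin than Lyz2. This held for cells named by cluster: with cells named by marker score Lyz1 turned to a log2 ratio of -1.09 and Lyz2 to -0.049. Lyz2 also turned with macrophage states weighted alike (-0.10) and with the unnamed cluster 39 included (-0.13). Lyz1 came to 506 UMIs or 42.4 CPM (38.7 to 46.2) in the wild-type library. In the library labelled Kif13b-/- it came to 1062 UMIs or 111 CPM (104 to 118). That is 2.62-fold higher, a log2 ratio of 1.39 (1.24 to 1.54). Lyz2, far more abundant, came to 79798 UMIs or 6680 CPM against 89798 UMIs or 9382 CPM, 1.40-fold higher (log2 0.49, 0.48 to 0.50). Of the members, 1 of 2 was past 1.5-fold higher and neither was past 1.5-fold lower. Over the 14233 genes with more than 20 UMIs in these cells, 4.61% were past 1.5-fold higher and 8.28% past 1.5-fold lower. The median log2 ratio of these genes was -0.02. The rule that chose the members used this contrast, so nothing is read from their count. The ratio of Lyz1 was exceeded by 57 of the 14233 genes, and that of Lyz2 by 967. Of the 3520 genes with more than 1000 UMIs in both libraries together, where Lyz1 has 1568, 0 exceeded Lyz1. These ranks describe the contrast that chose the members, and nothing is read from them either.

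Lyz2 was found broadly. At least 1 Lyz2 UMI was seen in 81.4% of macrophage-like cells of the wild-type library and in 89.7% of the other, with medians of 4 and 10 UMIs per cell where the median cell had 1929 and 3191 UMIs of all genes. Thinning cells to 1000 UMIs each, which left out 454 and 138 shallower cells, gave shares of 75.0% and 80.6%. Lyz1 was found in few cells: 62 of 2601 (2.38%, 1.83 to 3.05) and 72 of 1276 (5.64%, 4.44 to 7.05), or 0.792% and 2.02% after thinning. Its median per cell was 0 in both libraries.

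Most Lyz1 molecules sat in a handful of cells. The 3 cells with most Lyz1 held 53.2% of the macrophage-like total in the wild-type library and 67.4% in the library labelled Kif13b-/-. The top 10 cells held 85.6% and 90.8%, while the 10 cells richest in Lyz2 held only 13.8% and 18.4% of the Lyz2. Expressed as an effective number of cells (the inverse of the summed squared shares), Lyz1 came from 8.20 and 5.51 cells and Lyz2 from 224 and 136. Among genes with between 0.5 and 2 times as many UMIs, the median share of the top 3 cells was 3.65% in the wild-type library and 4.10% in the other. In the wild-type library 3 of 3776 such genes exceeded Lyz1 (Car3, Col10a1 and Retnla), and in the other 0 of 2294 did.

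**Figure D1:**
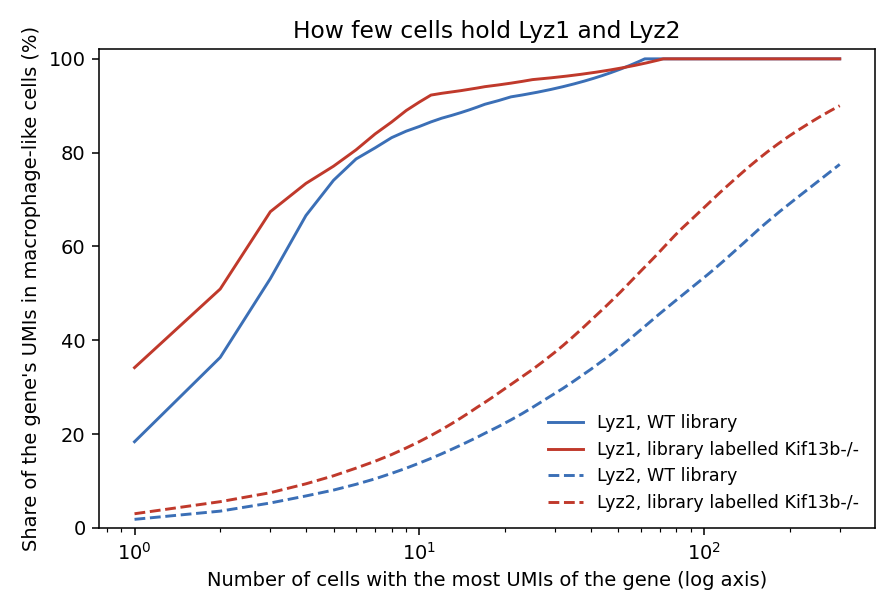
Share of each lysozyme's macrophage-like UMIs (vertical axis, percent) held by the cells with most of it, counted from the top on a log axis, with 1 line per gene and library. The Lyz1 lines pass 85.6% (wild type) and 90.8% (library labelled Kif13b-/-) at the tenth cell, where the Lyz2 lines are at 13.8% and 18.4%.

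Cells fell into a large set with few or no Lyz1 molecules and a small set with many. Exactly 1 Lyz1 UMI was seen in 41 wild-type and 47 other cells, 2 to 9 UMIs in 13 and 14, and 10 or more in 8 and 11. The line at 10 UMIs was drawn after the values were seen. The cells nearest to it held 11 and 7 UMIs in the wild-type library and 16 and 4 in the other, so no cell lay between 7 and 11 or, in the latter, between 4 and 16.

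The 8 wild-type cells with 10 or more Lyz1 UMIs held 93, 91, 85, 68, 38, 23, 12 and 11. They were 0.308% (0.133 to 0.605) of macrophage-like cells and carried 421 UMIs, 83.2% of the Lyz1. The 11 such cells of the library labelled Kif13b-/- held 363, 178, 175, 64, 39, 37, 36, 27, 26, 19 and 16. They were 0.862% (0.431 to 1.54) of macrophage-like cells and carried 980 UMIs, 92.3% of the Lyz1. The 3 highest cells of the latter lay above every wild-type cell, and the remaining 8 lay within the wild-type range.

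**Figure D2:**
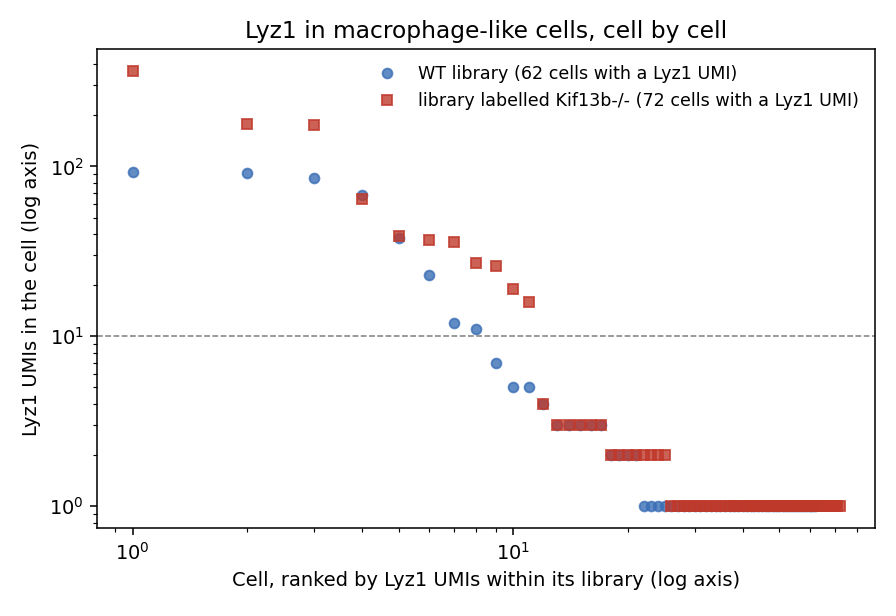
Lyz1 UMIs in every macrophage-like cell with at least 1, ranked from the highest within its library, both axes on log scales, with a dashed line at 10 UMIs. The points start at 93 (wild type) and 363 (library labelled Kif13b-/-) and end in a tail of 41 and 47 cells with 1 UMI.

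Leaving out cells by their own Lyz1 count takes more from the library with more Lyz1, so the values that follow describe where the molecules lay and test nothing. The other 2593 wild-type cells held 85 Lyz1 UMIs and the other 1265 cells of the library labelled Kif13b-/- held 82. These are 7.18 and 8.81 CPM, a log2 ratio of 0.30 (-0.16 to 0.75). The share of these cells with any Lyz1 UMI still differed, at 2.08% (1.57 to 2.71) and 4.82% (3.71 to 6.15), or 0.468% and 1.15% after thinning. With only the highest cell of each library left out, the log2 ratio of Lyz1 was 1.08 (413 against 699 UMIs). With 3 left out it was 0.87 (237 against 346), with 5 it was 1.22 (131 against 243), and with 10 it was 0.76 (0.31 to 1.22; 73 against 98 UMIs). With 20 left out it was 0.75 (0.16 to 1.36), so Lyz1 stayed higher in the library labelled Kif13b-/- at each of these steps. With the cells richest in Lyz2 left out instead, Lyz2 moved less, from 0.49 to 0.47 with 1 cell and 0.43 with 10.

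The ratio of the genes was summed in the same way. Over all macrophage-like cells Lyz1 made up 0.630% (0.577 to 0.687) of wild-type lysozyme UMIs and 1.17% (1.10 to 1.24) of the others, or 6.34 and 11.8 Lyz1 UMIs per 1000 of Lyz2. The log2 difference between these ratios was 0.90 (0.75 to 1.05). In cells with fewer than 10 Lyz1 UMIs the share was 0.110% (0.0877 to 0.136) and 0.103% (0.0816 to 0.127), with overlapping intervals. In cells with 10 or more wild-type values ran from 3.68% to 45.8% (median 13.1%), and those of the library labelled Kif13b-/- from 1.56% to 30.6% (median 6.81%).

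A high Lyz2 count did not come with Lyz1 in most cells. Of the cells with at least 500 Lyz2 UMIs, 27 in the wild-type library and 45 in the other, 20 and 25 had no Lyz1 UMI and 1 and 7 had 10 or more. The cell with most Lyz1 in the wild-type library held 93 beside 982 of Lyz2, and the next held 91 beside 142. In the library labelled Kif13b-/- the top cell held 363 beside 825, and the next cells held 178 beside 1143 and 175 beside 1537. Among the lowest of the small set, 19 Lyz1 UMIs stood beside 84 of Lyz2 and 38 beside 45.

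**Figure D3:**
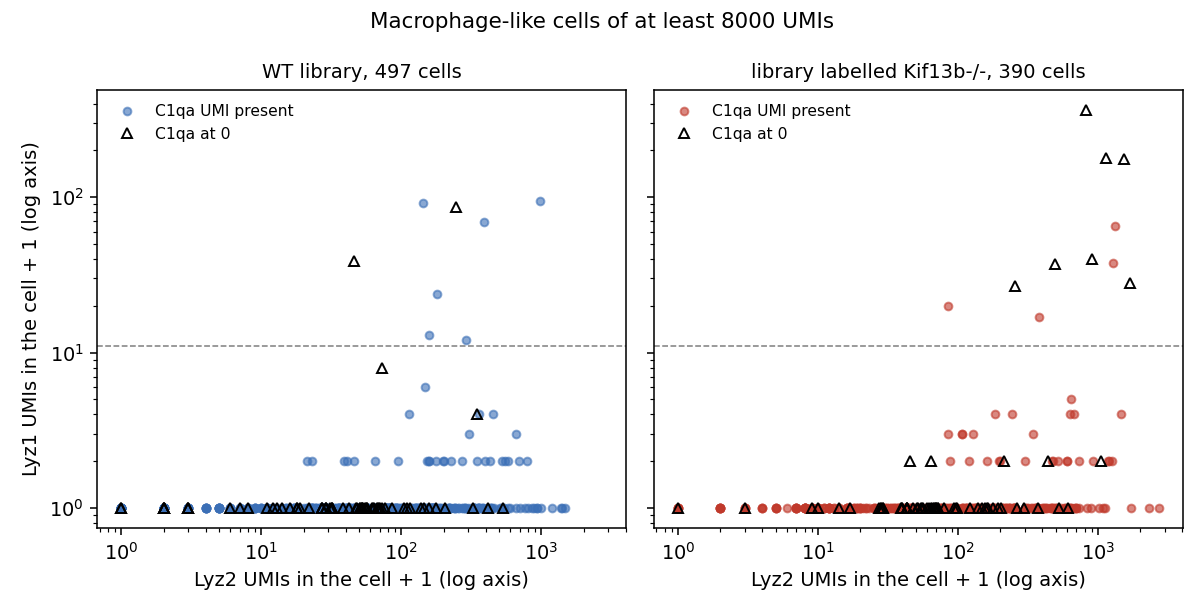
Lyz1 against Lyz2 UMIs in each macrophage-like cell of at least 8000 UMIs (497 in the wild-type library, 390 in the library labelled Kif13b-/-), each count plus 1 on a log axis, with triangles for cells without a C1qa UMI and a dashed line at 10 Lyz1 UMIs. Cells above the line stand apart from a floor of cells at 0 to 7 Lyz1 UMIs that reaches 2722 Lyz2 UMIs without any Lyz1.

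The cells with 10 or more Lyz1 UMIs were deeply sequenced, at a median of 12124.5 UMIs (8284 to 18148) and 26839 UMIs (10582 to 30588), and the part of depth in their detection was not tested. Among macrophage-like cells with at least 8000 UMIs, a floor below the least deep of them, they were 8 of 497 (1.61%) and 11 of 390 (2.82%). Lyz1 was at 0 in 92.2% and 89.0% of these deep cells. Csf1r, the receptor that macrophages need for survival, was counted in 8 of 8 and 9 of 11 of the high-Lyz1 cells. Cd3e of T cells, Ly6c2 of classical monocytes and Flt3 of dendritic cells were at 0 in all of them. Flt3 stood at only 3.58 and 3.83 CPM in the other cells of cluster 4, so its 0 says little. Naaa, of the same dendritic cell marker list as Flt3, was counted in 4 of 8 and 11 of 11. It stood at 149 and 240 CPM, against 62.2 and 57.3 CPM in the other cells of cluster 4.

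The high-Lyz1 cells of the 2 libraries differed in their other macrophage genes. Mrc1, the mannose receptor of tissue-resident macrophages, was counted in 8 of 8 wild-type cells and in 1 of 11 of the others, against 40.4% and 31.1% of the other cells of cluster 4, which holds all but 2 of the high-Lyz1 cells and is less deep, at medians of 8597 and 13684 UMIs. Gpnmb, a glycoprotein of lipid-laden macrophages, was counted in 3 of 8 and 9 of 11, against 32.9% and 47.6%. C1qa, a complement component made by most tissue macrophages, was at 0 in 2 of 8 and 7 of 11. In other macrophage-like cells of at least 8000 UMIs it was at 0 in 68 of 489 (13.9%, 10.96 to 17.3) and 58 of 379 (15.3%, 11.8 to 19.3). The cells without C1qa carried 123 of 421 and 844 of 980 of the high cells' Lyz1 UMIs.

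The naming of these cells depended on the method. They were named by cluster; given instead the class whose markers scored highest in each cell, 7 of the 8 wild-type cells stayed macrophage-like (383 Lyz1 UMIs) and 1 became dendritic cell-like (38). Of the 11 others, 4 stayed macrophage-like (136 UMIs), 6 became dendritic cell-like (808) and 1 smooth muscle cell-like (36). Under that naming the log2 ratio of Lyz1 in macrophage-like cells turned to -1.09. Of the 11 cells, 2 also held many molecules of stromal genes: 1 with 36 Lyz1 UMIs had 169 of Acta2, and 1 with 26 Lyz1 UMIs had 81 of Dcn. Their doublet scores stood at percentiles 97.5 and 99.1 of the kept macrophage-like cells of that library, and whether they were pairs of cells was not tested.

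The high-Lyz1 cells were set beside the other, less deep cells of cluster 4, which holds 8 of 8 and 9 of 11 of them. A gene had to be counted in at least 50% of the high-Lyz1 cells of both libraries, a filter the other cells did not face. Higher levels therefore describe these cells and test nothing. Of 2560 such genes, 94 in the wild-type library and 40 in the other had a log2 difference of at least 1. In both libraries 17 did, Lyz1 among them, and a few are named here after their values were seen. Fn1 and Ecm1, both matrix proteins, had log2 differences of 2.02 and 2.84 in the wild-type library and 1.44 and 1.11 in the other. Lyz2 itself had 1.56 and 1.88. Clmp, an adhesion molecule, had 2.62 and 2.76, and Ctsk, a collagen-degrading cathepsin of osteoclasts, 1.57 and 2.55, but 1 cell gave 78.3% of the wild-type Clmp molecules and 1 gave 89.1% of those of Ctsk. Resident macrophage genes outside that filter went different ways. Mrc1 had 1.64 and -1.31, and Pf4, a chemokine with 63.7% of its wild-type molecules in 1 cell, had 2.26 and -1.26. F13a1 and Ccl8 were lower in both libraries, at -0.78 and -0.50 for F13a1 and -1.86 and -0.52 for Ccl8. Spp1, osteopontin, an abundant product of foamy macrophages, was lower in both, at -2.19 and -1.32. The monocyte gene Chil3 was at 0 in both sets of cells, and Plac8 stood at 0 and 1 UMI. Ccr2, of the same monocyte list, was counted in 1 of 8 (11 UMIs) and 6 of 11 (14 UMIs). Its log2 differences were 0.74 and 0.07.

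Macrophage-like cells were next divided into sub-clusters, of which 8 had at least 50 cells in each library, and the dendritic cell-like and neutrophil-like cells were taken as 2 further states. Lyz1 was at least 1.5-fold higher in the library labelled Kif13b-/- in 3 of these 10 states, 1 of which rests on 1 UMI in each library. The remainder had too few molecules to compare or went the other way. Sub-clusters carry a number, and a name only where the fixed markers of a macrophage or monocyte state gave one; several, such as M1 with 191 and 64 cells, were led by genes of other cell types, and whether these were mixed droplets was not tested.

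The foamy macrophage-like sub-cluster (M12), named from 8 of 9 markers of lipid-laden macrophages such as Lpl, Gpnmb and Atp6v0d2, held most of the excess. Its 132 wild-type cells gave 188 Lyz1 UMIs, 123 CPM, and its 125 cells in the other library gave 892, 387 CPM, a log2 ratio of 1.65 (1.42 to 1.88). In the same comparison 10.5% of genes tested were at least 1.5-fold higher. Lyz2 was at its highest level here, 18050 and 20599 CPM, with medians of 133.5 and 219 UMIs per cell and a log2 ratio of 0.19 (0.17 to 0.21). The Lyz1 share of lysozyme UMIs was 0.678% (0.585 to 0.782) and 1.84% (1.73 to 1.97). The 3 and 7 cells with 10 or more Lyz1 UMIs held all but 18 and 20 of these UMIs. As shares of the sub-cluster's cells with at least 8000 UMIs, those cells were 3 of 81 (3.70%, 0.770 to 10.4) and 7 of 96 (7.29%, 2.98 to 14.4), with overlapping intervals. C1qa was at 0 in 4 of the 7 and in 4 of the other 89 deep cells of that library.

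Sub-cluster M2, led by Vcam1, Slurp1 and Timp1 together with the stromal genes Dcn and Lum, gave 8 Lyz1 UMIs in 132 wild-type cells and 65 in 75 cells of the other library, 6.55 and 84.8 CPM. The log2 ratio was 3.62 (2.63 to 4.96), where 8.61% of genes tested were at least 1.5-fold higher. All but 3 of the 65 UMIs came from 2 cells, those with the Acta2 and Dcn molecules described above. Lyz2 went the other way there, from 6726 to 2540 UMIs and a log2 ratio of -0.73.

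In 3 sub-clusters, M11, M22 and the monocyte-like M8, Lyz1 was lower in the library labelled Kif13b-/-. M11, led by Dcstamp, a gene of cell fusion in osteoclasts and giant cells, gave 159 UMIs in 189 wild-type cells and 45 in 132 cells of the other. The levels were 83.8 and 22.9 CPM (log2 -1.86, -2.38 to -1.38), where 6.93% of genes tested were at least 1.5-fold lower. Cells of 10 or more held all but 5 and 18 of these UMIs. M22, led by the interferon-response genes Rsad2 and Ifit1 and by the chemokine Ccl8, gave 126 UMIs in 248 cells and 20 in 94. Its levels were 64.5 and 19.3 CPM (log2 -1.71, -2.50 to -1.05), where 12.1% of genes tested were at least 1.5-fold lower. Cells under 10 held 29 and 1 of these UMIs.

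The monocyte-like sub-cluster (M8) gave 8 Lyz1 UMIs in 130 wild-type cells, 7 of them in 1 cell, and 0 in 81 cells of the other library. The wild-type level was 8.46 CPM (3.65 to 16.7). A count of 0 has an exact upper limit of 4.63 CPM, or 3.77 CPM taken as 3 UMIs, so the intervals of the levels overlap. The exact interval of the log2 ratio lay below -0.52, but it treats the 7 UMIs of 1 cell as independent. The share of all genes past 1.5-fold lower was not taken for M8. Its Lyz2 was 4586 and 4230 UMIs, 4848 and 5314 CPM. Dendritic cell-like cells gave 2 and 1 Lyz1 UMIs beside 731 and 839 of Lyz2, and neutrophil-like cells gave 0 and 0 beside 105 and 243. Sub-clusters M1, M3 and M20 gave 0 or 1 Lyz1 UMI in each library. The sub-clusters too small for this comparison had Lyz1, summed over them, at 5.18 and 19.5 CPM, a log2 ratio of 1.89 (1.02 to 2.88) from 15 and 39 UMIs. No cell there held more than 3, and 1.01% and 6.02% of cells held any, so this difference did not sit in a few rich cells. It lay mainly in 1 sub-cluster: of the 39 UMIs, 27 lay in M24, of whose 240 cells 221 came from the library labelled Kif13b-/-. M24 was led by genes such as Bpifb1, Cytl1 and Comp, with 4 of 5 chondrocyte markers raised. Its 19 wild-type cells held 1 Lyz1 UMI.

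**Figure D4:**
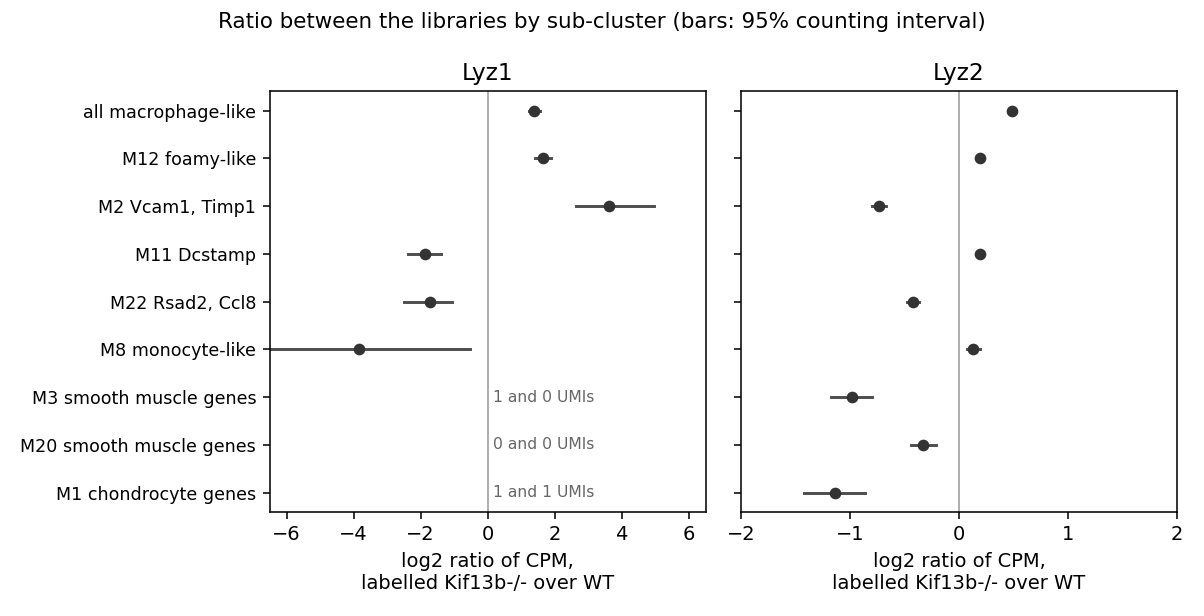
Log2 ratio of CPM in the library labelled Kif13b-/- to that in the wild-type library, for Lyz1 (left) and Lyz2 (right) in all macrophage-like cells and in 8 sub-clusters, with exact 95% counting intervals; sub-clusters with 0 or 1 Lyz1 UMI show these counts instead, and the M8 interval runs off the axis because 1 library is at 0. Lyz1 lies at 1.65 in M12 and 3.62 in M2 but at -1.86 in M11, while Lyz2 in these 8 sub-clusters lies between -1.13 (M1) and 0.19 (M11 and M12).

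Lyz2 itself was not higher throughout. Its log2 ratio was 0.19 in M11 and in M12, 0.13 in the monocyte-like sub-cluster, -0.33 in M20, -0.42 in M22, -0.73 in M2, -0.98 in M3 and -1.13 in M1. Summed over the sub-clusters too small for this comparison it was 0.75 (0.71 to 0.79), from 3878 and 6521 CPM. M1 was led by cartilage genes such as Col2a1 and M3 by smooth muscle genes such as Myh11. Lyz2 was higher in dendritic cell-like cells, 385 against 616 CPM (log2 0.68), and in neutrophil-like cells, 550 against 1561 CPM (log2 1.5005, 1.17 to 1.85). In order of Lyz2 level among the sub-clusters compared, M12 came first in both libraries and M11 second. In the wild-type library M2 and M22 followed at about the same level, with M8 below them, while in the other M8 followed M11 directly.

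Lyz2 was also counted in classes that should lack it; the part of free RNA in droplets was not tested. T cell-like cells had 263 and 283 CPM of Lyz2 and at least 1 UMI in 27.6% and 23.6% of them, the median cell having 2084 and 5268 UMIs of all genes. After thinning these shares were 19.2% and 12.3%. In the library labelled Kif13b-/- 60.3% of the T cell-like UMIs lay in 1 cell. Smooth muscle cell-like cells were lower, at 24.8 and 27.3 CPM, with lymphatic endothelial cell-like cells at 459 and 45.5 CPM and B cell-like cells at 14.6 and 2569 CPM. The shares of cells with Lyz2 among macrophage-like cells lay above those of each of these classes. Lyz1 was counted in 0 of 689 and 0 of 140 T cell-like cells, which allows up to 0.435% and 2.14% of such cells with a UMI, taken as 3 cells, and limits nothing about cells that express it. Over all named classes that are not myeloid it came to 14 and 9 UMIs, each in a cell with 1, or 0.297 and 0.409 CPM beside 174 and 194 CPM of Lyz2.

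**Figure D5:**
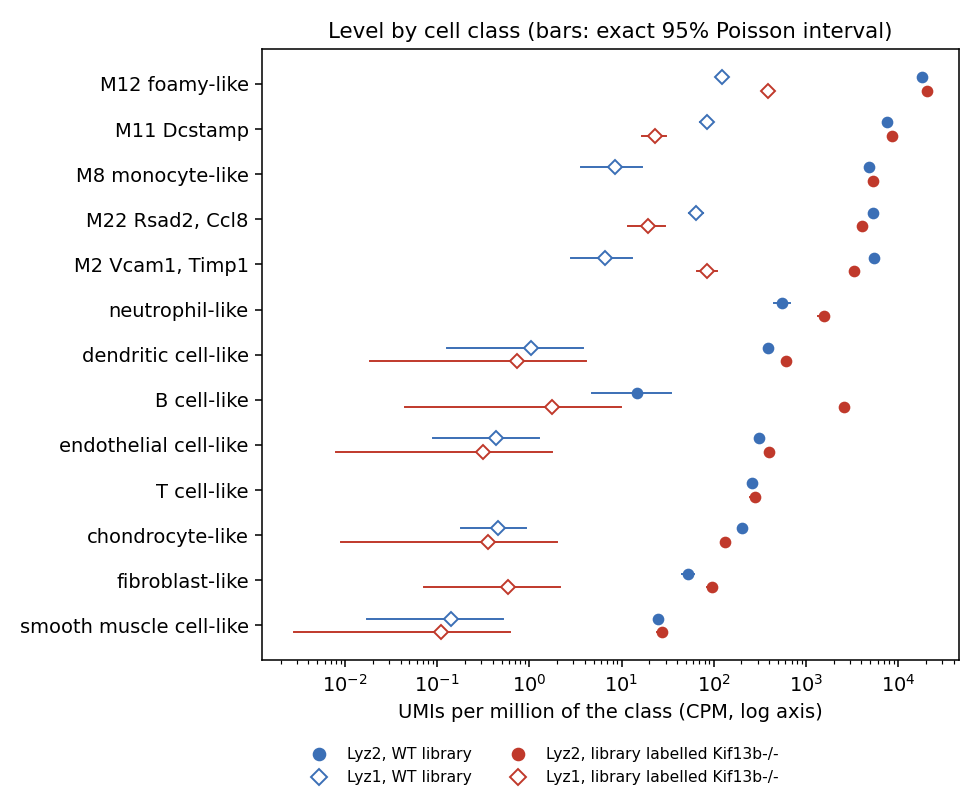
Lyz1 (open diamonds) and Lyz2 (filled circles) in CPM on a log axis for 5 macrophage-like sub-clusters and 8 other classes in each library, with exact 95% Poisson intervals; a count of 0 has no marker. M12 is highest for both genes, at 123 and 387 CPM of Lyz1 and 18050 and 20599 CPM of Lyz2, and T cell-like cells have no Lyz1 marker beside 263 and 283 CPM of Lyz2.

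Genes of related functions were taken as lists fixed with earlier results known. Besides Lyz1 and Lyz2, the lysozyme family had 1 gene with enough molecules in macrophage-like cells: Lyzl4, a sperm lysozyme, with 35 and 59 UMIs and a log2 ratio of 1.06 (0.45 to 1.72). The other 7 family genes had 8 UMIs together. Of 16 antimicrobial and granule genes tested, 0 were past 1.5-fold higher and 5 past 1.5-fold lower, where 8.28% of all genes were lower, with a median log2 ratio of -0.14 against -0.02 for all genes. The most abundant, Lgals3 (galectin-3), Cybb (an NADPH oxidase subunit), Wfdc17 and Acod1 (which makes itaconate), had 0.31, 0.07, -0.06 and -0.24. Named after their values were seen, S100a8 and S100a9, the calprotectin subunits, stood at -0.94 and -1.27, and Lcn2, the siderophore-binding lipocalin, at -0.81. Of 28 lysosomal genes 2 were past 1.5-fold higher, where 4.61% of all genes were, and 0 lower, with a median of 0.20. These were Ctsk (0.83) and Atp6v0d2 (0.60), a proton pump subunit, while the most abundant, the proteases Ctsb, Ctss, Ctsl and Ctsd, had 0.20, 0.25, 0.39 and 0.40.

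Lists of myeloid identity differed among themselves. Over all genes tested, 4.61% were past 1.5-fold higher and 8.28% past 1.5-fold lower, so a count of 0 or 1 in a list is not read as a result. Of 14 pan-myeloid genes 0 passed 1.5-fold in either direction (median 0.24), the most abundant being Ctss, Cst3 (0.23), Fcer1g (-0.02) and Tyrobp (0.30). Of 17 myeloid transcription factors 1 was lower, Maf at -0.61, and 0 higher (median 0.03), with Cebpb at -0.23, Nfkb1 at 0.14, Mitf at 0.03 and Runx1 at 0.03. Spi1, which encodes PU.1 and is not among the most abundant, stood at 0.22. The foamy macrophage list had 1 of 9 higher, Atp6v0d2, against 4.61% of all genes, with a median of 0.31 and Spp1 at 0.19. The monocyte list had 3 of 7 higher, against 4.61% of all genes, with a median of 0.43 and Plac8 at 0.80. The resident macrophage list had 6 of 8 lower, against 8.28% of all genes (median -0.95), with Ccl8 at -2.003, Mrc1 at -0.998 and Pf4 at -0.91. The foamy-like sub-cluster M12 made up 5.07% of macrophage-like cells in the wild-type library and 9.80% in the other. The part of these differences in the Lyz1 comparison was not tested.

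Genes around the tandem pair on chromosome 10 stood near no difference. Of 12 neighbours 10 had enough molecules, and 0 of these were past 1.5-fold in either direction, with a median log2 ratio of -0.01. Rap1b had -0.22, Cpm -0.21, Cpsf6 -0.08, Nup107 -0.03, Mdm2 -0.02, Slc35e3 -0.01, Yeats4 0.01, Cct2 0.06, Frs2 0.20 and Rab3ip 0.42, while Best3 had 5 UMIs and Lrrc10 had 0.

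Over the levels of 20 cell classes in both libraries (40 points that share libraries and depth), the genes most like Lyz1 included Gusb, Ctsa, Grn and Daglb, with Pearson correlations of 0.841, 0.809, 0.787 and 0.781. Gusb, Ctsa and Grn encode proteins of the lysosome. Class levels of Lyz1 rest largely on few cells: the high-Lyz1 cells carried 83.2% (wild type) and 92.3% of macrophage-like Lyz1. In these cells, set against the other cells of their main cluster, Gusb had log2 differences of -1.12 (wild type) and 0.21. Ctsa had -0.18 and -0.24, and Grn 0.15 and -0.21, so none of these genes was higher in both libraries. The genes most like Lyz2 were Ms4a6d, C1qb, Cd68, C3ar1 and Syngr1, at 0.957, 0.936, 0.935, 0.933 and 0.931. Lyz1 and Lyz2 correlated at 0.690 with each other. Among 7578 genes Lyz2 had rank 60 in likeness to Lyz1, and Lyz1 had rank 384 in likeness to Lyz2.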

How the data were processed

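Single-cell libraries of mouse aorta were made with the 10x Genomics Single Cell 3′ kit v3.1, per the labels' protocols. The deposited values are UMI counts per gene and barcode, made by the authors with Cell Ranger 8.0.1, per the file headers, on mm10, per the submitters' processing notes. The gene annotation and the handling of reads that match both lysozyme genes are not given in the sources used here.

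Kept barcodes had 500 or more UMIs from 300 or more genes, and mitochondrial UMIs made up no more than 20%. Automatic doublet calls marked almost none, so the highest Scrublet scores were removed at 0.8% per 1000 barcodes: 3146 barcodes (15.9%) in the wild-type library and 428 (5.85%) in the other. Cells were clustered (Leiden, resolution 1) without Lyz1 and Lyz2 in scanpy 1.11.5, with igraph 0.11.9, and macrophage-like cells were clustered again. A cluster was named where at least 3 markers of a type, and 66.7% of those measured, were raised 2-fold, with a lead of 0.5 on the log2 scale over the next type. Raw counts were summed per library and class and divided by the summed total (CPM). Log2 ratios carry a prior count of 0.5, and genes tested needed more than 20 UMIs in both libraries together. Intervals are exact, at 95% (Poisson, conditional binomial or Clopper-Pearson; for the difference of 2 ratios, Woolf's), from scipy 1.17.1; the floor for a count of 0 is 3 UMIs. Molecules of 1 cell are not independent, so these intervals are too narrow as errors between animals. The ratio script was checked on simulated data.

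Depth was 81975755 and 59853601 UMIs in kept cells. Groups were taken from the labels. Sequences came from RefSeq (promoters, GRCm38.p6) and the GENCODE annotation of GRCm38, read with biopython 1.88. Members, gene lists, the naming limits, the lines at 10 Lyz1 and 8000 total UMIs and the states compared were chosen with earlier results of these data known. Named genes were the members, all neighbourhood and lysozyme family genes, the 5 most alike to each member over class levels (1 of them is not reported here), and the most abundant 2 to 4 of each other list. Alternatives changed doublets, filters, resolution, naming, thinning, weighting and scaling.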

Additional observations from a re-analysis of the deposited data

Results flagged for a closer look

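Lyz1 differed in opposite ways between sub-clusters of macrophage-like cells, which drew attention to 5 of them. The log2 ratio of the library labelled Kif13b-/- to the wild-type library was 1.65 in the foamy-like sub-cluster M12 and 3.62 in M2, but -1.86 in M11 and -1.71 in M22. In the monocyte-like M8 the ratio was -3.84, a value that depends on the prior count because 0 UMIs were counted in 1 library and 8 in the other. The difference between sub-clusters was not tested, since each library is 1 sample. Cells with 10 or more Lyz1 UMIs gave 170 of the 188 UMIs of M12 in the wild-type library and 872 of 892 in the other. They gave 154 of 159 and 27 of 45 in M11.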

How the results depend on the processing

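Log2 ratios are given as Lyz1, then Lyz2, then the difference of the 2; settings not listed for a value left it within its counting interval. In macrophage-like cells they were 1.39, 0.49 and 0.90. With cells classed by marker score all 3 turned, to -1.09, -0.049 and -1.04. With macrophage states weighted alike Lyz1 was 0.86 and Lyz2 turned to -0.10. With at least 2000 UMIs they were 1.79, 0.39 and 1.39, at resolution 2 they were 1.68, 0.55 and 1.13, and thinned to 1000 UMIs they were 1.00, 0.44 and 0.56. A mitochondrial limit of 10% gave 0.38 for Lyz2 and 1.14 for the difference. Lyz2 alone moved to 0.47 with both genes kept for clustering, 0.54 with no doublets removed, 0.51 as a mean of cells' CPM, 0.41 without the 1% of cells with most Lyz1, 0.51 without mitochondrial and ribosomal UMIs and 0.51 with the median of all genes (-0.02) set to 0. The count of states with higher Lyz1 was 5 of 11 with no doublets removed and 5 of 8 at the 10% limit, against 3 of 10. It was 2 of 6 with at least 2000 UMIs and 2 of 5 at resolution 2. Settings that cluster again do not have the same states. Without the 1% of cells with most Lyz1 the count stayed at 3 of 10, but with M11 in place of M12.

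Alternatives chosen after seeing the data left out the top cells of each library. For Lyz1 and the difference these were the cells with most Lyz1, and for Lyz2 those with most Lyz2. The third value is therefore not the first less the second. Without 1 cell the values were 1.08, 0.47 and 0.58, without 3 they were 0.87, 0.46 and 0.41, and without 10 they were 0.76, 0.43 and 0.37. Without 5 they were 1.22 for Lyz1 and 0.45 for Lyz2. Counting the unnamed cluster 39 as macrophage-like gave 0.59 and 0.72 for Lyz1 and the difference, and turned Lyz2 to -0.13. Cluster 4 alone gave 1.10, 0.42 and 0.68. The cause of each move was not tested, except that leaving out cells removes their molecules. Of 21 alternatives 10 left Lyz1 within its interval, 3 left Lyz2 and 11 left the difference. No paired analysis was possible because each genotype has 1 library and the labels carry no replicate numbers, and no replicate could be left out. Depth also limits Lyz1: 41 and 47 macrophage-like cells hold exactly 1 UMI.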

Other observations

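Outside the named classes, cluster 39 carried lysozyme in another way. It held 1294 cells of the library labelled Kif13b-/- and 4 of the wild-type library, and it was left unnamed because 1 of 9 macrophage markers was raised in it. In the former, Lyz2 was counted in every cell, with a median of 22 UMIs and 3146 CPM. Lyz1 came to 233 UMIs in 179 cells, 148 of them with 1 UMI and the highest with 12, and the effective number of cells was 107. Its level was 21.4 CPM (18.8 to 24.4) and its share of lysozyme UMIs 0.676%, without the few very high cells seen among macrophage-like cells.

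In the unnamed cluster 1, Lyz1 came to 3 UMIs in the wild-type library and 48 UMIs in 19 cells of the other, where it was 2.39% of lysozyme UMIs. B cell-like cells held 5 Lyz2 UMIs in the wild-type library and 1457 in the other, 14.6 and 2569 CPM. Of the latter 76.9% lay in 10 cells. Barcodes removed as doublets held 18 and 28 Lyz1 UMIs.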
